A study of Arabidopsis thaliana with 13 samples.

Results

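The ATH1 array of Arabidopsis carries a numbered block of probe sets for genes of the chloroplast and the mitochondrion, and the 150 probe sets numbered 244901 to 245050 were taken as that block, out of 22746 that are not controls. The choice used the number of the probe set alone and no measured value, though earlier results of these data were then known. In the platform annotation 77 of the 150 probe sets belonged to plastid genes, 12 to mitochondrial genes, 5 to loci of the AT2G07 series and 10 to loci of the AT2G26 series on chromosome 2, 1 to genes of different names and 45 to no gene. The label therefore held for 89 probe sets, whereas the 10 of the AT2G26 series belonged to nuclear genes and are used below beside the organelle genes. Of the 78 symbols of plastid protein-coding genes in the TAIR10.1 gene table, 76 had a probe set here and none had one elsewhere on the array, while 11 further mitochondrial probe sets lay outside the block. No probe or gene sequence was used.

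RNA came from whole siliques of Arabidopsis, which hold silique wall and seed coat beside embryo and endosperm, with 1 array for each sample and crosses written with the seed parent first. The maternal excess crosses were 6xX2x, in which an emasculated hexaploid Col-1 mother was pollinated by a diploid C24 father, and 4xX2x, with a tetraploid C24 mother and a diploid C24 father. The paternal excess crosses had a diploid C24 mother, with a tetraploid C24 father in 2xX4x and a hexaploid Col-1 father in 2xX6x. In fis1X2x the mother was a homozygous fis1-3 mutant of accession Ler and the father diploid C24, and in the balanced cross 2xX2x both parents were diploid C24. Mothers of 2xX2x, 2xX4x, 2xX6x and 4xX2x carried A9-barnase, a transgene that makes plants male sterile. These 6 crosses had 2 biological replicates each, harvested 5 days after pollination and pooled from several plants. A single array held unfertilised msi1 siliques 7 days after flower opening, which the labels give as homozygous msi1-2 and the study's methods as male-sterile offspring of msi1 mutants and C24 A9-barnase plants. Only 6xX2x had a Col-1 mother and only fis1X2x a Ler mother, so for these crosses the accession of the mother and its ploidy or mutation cannot be told apart.

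Chloroplasts and mitochondria keep small genomes of their own, inherited in Arabidopsis through the mother, that encode part of their photosynthetic or respiratory complexes and of their ribosomes. Most other subunits are encoded in the nucleus and imported. Plastid genes lie mostly in clusters that are transcribed together and then cut into smaller transcripts, by a polymerase of bacterial type, whose core subunits are the plastid genes rpoA, rpoB, rpoC1 and rpoC2, and by nuclear-encoded phage-type polymerases. Plant organelle transcripts carry few stable poly(A) tails, and the primer with which the array cDNA was made is not given in the sources used here.

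Values are MAS5 signal intensities, which depend on the probes of each probe set, so that a signal is compared between arrays and not between genes. Differences and folds are on the scale of log2(signal + 7.4), where the offset 7.4 limits the weight of dim probe sets, and a probe set counted as measured when its signal was above the 40th percentile on at least 2 arrays, which 15982 of 22746 did. In the block 108 of 150 passed, made up of 76 plastid, 9 mitochondrial, 3 AT2G07 and 4 AT2G26 probe sets, 15 without a gene and 1 with genes of different names. The 42 others had median signals of 0.75 to 17.6 over the 12 arrays other than 6xX2x replicate 1, and among them were the mitochondrial ccmFN2, nad7 and matR. The plastid exception was ycf2.

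The array of 6xX2x replicate 1 had poorer RNA than the others and is kept apart where levels are described. Its ratio of 3′ to 5′ signal was 17.3 for the actin control and 2.06 for the GAPDH control, against 0.561 to 4.44 and 0.838 to 1.09 on the other 12 arrays. BAN, a seed coat gene, gave 640.1 to 1839 on the 13 arrays, and 8 nuclear genes for light-harvesting and photosystem proteins were also measured on all of them, with median signals of 1467 to 3254. PYK10, a root gene, gave 5.3 to 31.7 and did not pass the filter.

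Plastid signals were high in these siliques and varied more between arrays than most genes on the chip. The median plastid member had a median signal of 610.2 over the 12 arrays, with a range over members of 7.3 to 6250. The 10 members with the highest medians included atpB, atpE and atpA, subunits of the chloroplast ATP synthase, psbM and psbK, small subunits of photosystem II, petB, cytochrome b6 of the cytochrome b6f complex, psaB, a reaction centre subunit of photosystem I, ndhI of the NDH complex, which works in cyclic electron flow, and rpl2, a ribosomal protein. The remaining one was the nuclear AT2G26500, at 2892 to 5569 over the 12 arrays. Mitochondrial members were dim, with medians of 21.6 to 420.6, the highest being ccmFN1, needed for the maturation of c-type cytochromes.

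The spread over the 12 arrays was 0.72 (SD of log2) for the median plastid member and 0.72 for the median mitochondrial member, against 0.38 for the median of all 15982 probe sets. For probe sets with a median signal of 200 or more it was 0.34 (n = 3290), for the 8 nuclear photosynthesis genes 0.36 and for the 4 measured AT2G26 genes 0.33. Among plastid genes, clpP, the catalytic subunit of a protease, varied least, with an SD of 0.17. Its signal was 2267 in 6xX2x replicate 2, 2314 and 2984 in 4xX2x, 2886 and 2807 in 2xX4x, 3097 and 2362 in 2xX6x, 2463 and 3197 in fis1X2x, 2796 in msi1, and 2879 and 3007 in 2xX2x. The 5 most variable members were petN, a small subunit of the cytochrome b6f complex (SD 1.5, signals 3.3 to 391.1), 244944_s_at, which is annotated to genes of different names, rpl16, rpl20 and 244990_s_at, which has no gene.

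Most of this spread lay within pairs of replicates. The pooled SD within pairs was 1.05 for the median plastid member and exceeded the SD of the 6 group means in 71 of 76 (93.4%), whereas over all 15982 probe sets it was 0.33 and exceeded that SD in 61.1%. Without 6xX2x replicate 1 the values were 0.64, 86.8% of plastid members and 57% of all probe sets. The share of plastid members whose 2 replicates differed at least 2-fold was 85.5% in 6xX2x, 55.3% in 4xX2x, 36.8% in 2xX4x, 34.2% in 2xX6x, 7.89% in fis1X2x and 32.9% in 2xX2x, against 12%, 9.31%, 3.34%, 8.67%, 11.9% and 11.8% of all probe sets in the same crosses. In 5 of the 6 crosses, all but fis1X2x, plastid replicates therefore differed more often than those of the chip as a whole.

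**Figure D1:**
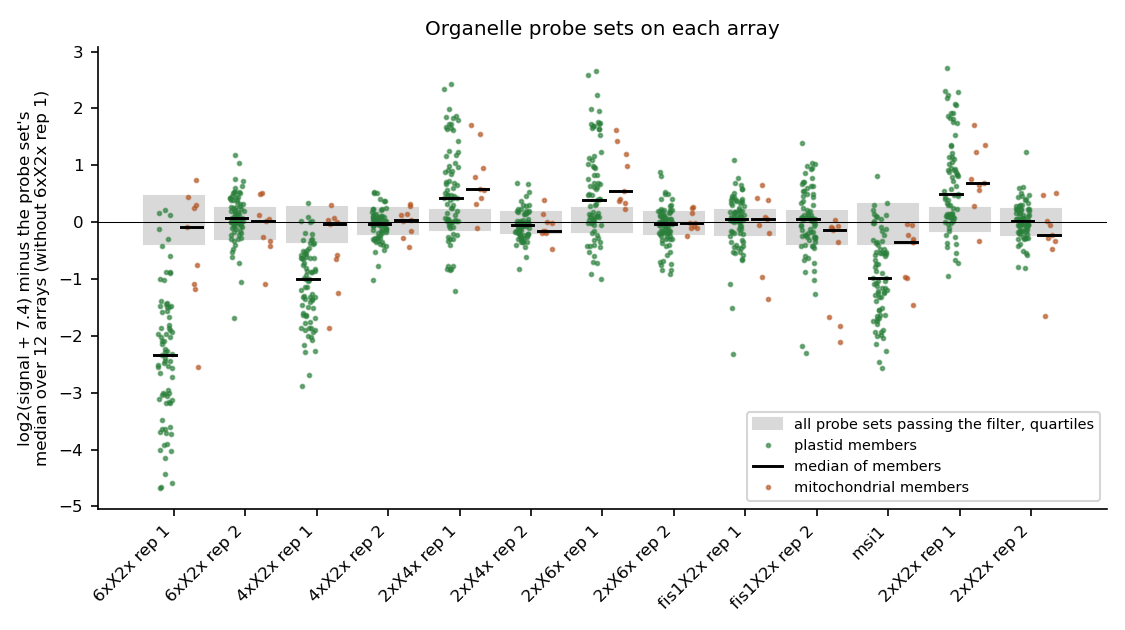
Difference of each measured plastid (green) and mitochondrial (brown) probe set from its own median over the 12 arrays other than 6xX2x replicate 1, on the log2(signal + 7.4) scale, for each array. Black lines are medians and grey boxes the quartiles of all 15982 probe sets. The plastid median is -2.33 on 6xX2x replicate 1, -1.01 on 4xX2x replicate 1 and -0.98 on msi1, and 0.39 to 0.49 on replicate 1 of 2xX4x, 2xX6x and 2xX2x, while the grey boxes stay around 0.

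Several arrays stood out for plastid genes. On 6xX2x replicate 1 the plastid members lay at a median of 5.02-fold below their medians over the 12 arrays, called their usual signal below, 65 of 76 at least 2-fold lower, and this array was the lowest of the 13 for 61 of them. On 4xX2x replicate 1 the median was 2.01-fold below, with 39 of 76 at least 2-fold lower, and on msi1 it was 1.98-fold below, with 37 of 76. On replicate 1 of 2xX4x, 2xX6x and 2xX2x the members were at medians of 0.43, 0.39 and 0.49 above it on the log2 scale, with 19, 20 and 23 at least 2-fold higher. On each of the other 7 arrays the plastid median lay between -0.06 and 0.07 on the log2 scale, and the median of all probe sets between -0.06 and 0.06 on the 13 arrays. In these bulk samples fewer cells or plastids and less transcript in each cannot be told apart. The part of RNA quality or of variation between arrays was not tested.

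The low signals of 6xX2x replicate 1 spared few plastid genes. Large differences were seen for psaA, the other reaction centre subunit of photosystem I, with 25.6 in replicate 1 and 1032 in replicate 2, and for psbC, an inner antenna protein of photosystem II, with 43.5 and 1505. One of the probe sets for rps12, a ribosomal protein, gave 3.4 in replicate 1, below the offset, and 228.5 in replicate 2. By function, the median fold between the replicates was 8.19 for the 15 photosystem II members, 6.82 for the 20 of ribosomal proteins, 6.06 for the 6 of the ATP synthase, 4.56 for the 6 of the cytochrome b6f complex, 4.50 for the 4 RNA polymerase subunits, 3.19 for the 5 of photosystem I and 2.95 for the 11 of the NDH complex. Among the bright exceptions were psbM, with 6105 in replicate 1 and 7143 in replicate 2, and ndhC, an NDH subunit, with 1784 and 1952. Dim members among them were rpl20, with 71.4 and 79.3, and rps14, with 14.8 and 17.3, and the 2 members higher in replicate 1 were ndhB, with 37.4 and 32.4, and rpoB, with 14.6 and 5.3. Of the 4 measured AT2G26 genes of the same block, 3 were above their usual signal on this array and 1 below, at a median of 1.21-fold above. The bright AT2G26500 was the 1 below, with 2981 against a median of 3560 and a range of 2892 to 5569 on the 12 others. The 8 nuclear photosynthesis genes lay 1.15-fold below their usual signal. The mitochondrial members lay at a median of 1.06-fold below, and 3 of 9 were at least 2-fold lower.

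On 4xX2x replicate 1, psbA, the D1 protein of photosystem II, gave 364.9, against 3193 in 4xX2x replicate 2. Likewise rpl16 gave 37.5 in replicate 1 and 199.6 in replicate 2, and petA, cytochrome f, 386.8 and 1629. This array had ratios of 3′ to 5′ signal of 1.08 for actin and 0.977 for GAPDH, within the range of the rest, and its 8 nuclear photosynthesis genes lay 1.14-fold below their usual signal. Low plastid signals were seen on this array without the high 3′ to 5′ ratios of 6xX2x replicate 1. These ratios cover the actin and GAPDH controls and no organelle transcript, and the part of RNA quality on either array was not tested.

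The 3 crosses on diploid C24 mothers shared a different pattern. On their replicate 1 arrays 46 of 76 plastid members (60.5%) were above all 3 replicate 2 arrays and 11 (14.5%) below all 3, against 14.4% and 10.2% of all 15982 probe sets. This grouping was chosen after the values were seen, and it follows the replicate numbers of the labels. Among the members that were higher, psaC, the iron-sulfur subunit of photosystem I, gave 971.9 in 2xX4x, 969.6 in 2xX6x and 1125 in 2xX2x on replicate 1, and 234.3, 268.5 and 290.3 on replicate 2. The other 7 arrays gave 17.5 to 405.1. For petN the replicate 1 signals were 333.9, 391.1 and 306.0 and the replicate 2 signals 42.3, 40.3 and 69.3, and for rpl20, a ribosomal protein, they were 527.6, 488.2 and 680.5 and 110.1, 78.3 and 86.5, in the same order of crosses. These 3 genes were taken from the members above all 3 replicate 2 arrays, so that their replicates do not overlap follows from the choice.

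The difference between replicates was alike in the 3 crosses. Over the 76 plastid members, replicate 1 minus replicate 2 correlated at a Pearson's r of 0.90 between 2xX4x and 2xX2x, 0.90 between 2xX4x and 2xX6x and 0.86 between 2xX6x and 2xX2x, where over all 15982 probe sets r was 0.34, 0.29 and 0.41. These are correlations across genes, which share arrays and are not independent. Dim members moved most: of the 25 with a median signal under 300, 22 were higher on replicate 1 and 1 lower, at a median fold of 2.40, while of the 31 with 1000 or more, 10 were higher and 6 lower, at 1.06. The rank correlation of the fold with the median signal was -0.59 (n = 76). By function, 5 of the 6 cytochrome b6f members, 4 of the 5 of photosystem I, 8 of the 11 of the NDH complex, 11 of the 20 of ribosomal proteins, 7 of the 15 of photosystem II, 3 of the 6 of the ATP synthase and 2 of the 4 RNA polymerase subunits were higher. The dim mitochondrial members had medians of 1.49-fold, 1.46-fold and 1.62-fold above their usual signal on replicate 1 of 2xX4x, 2xX6x and 2xX2x.

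**Figure D2:**
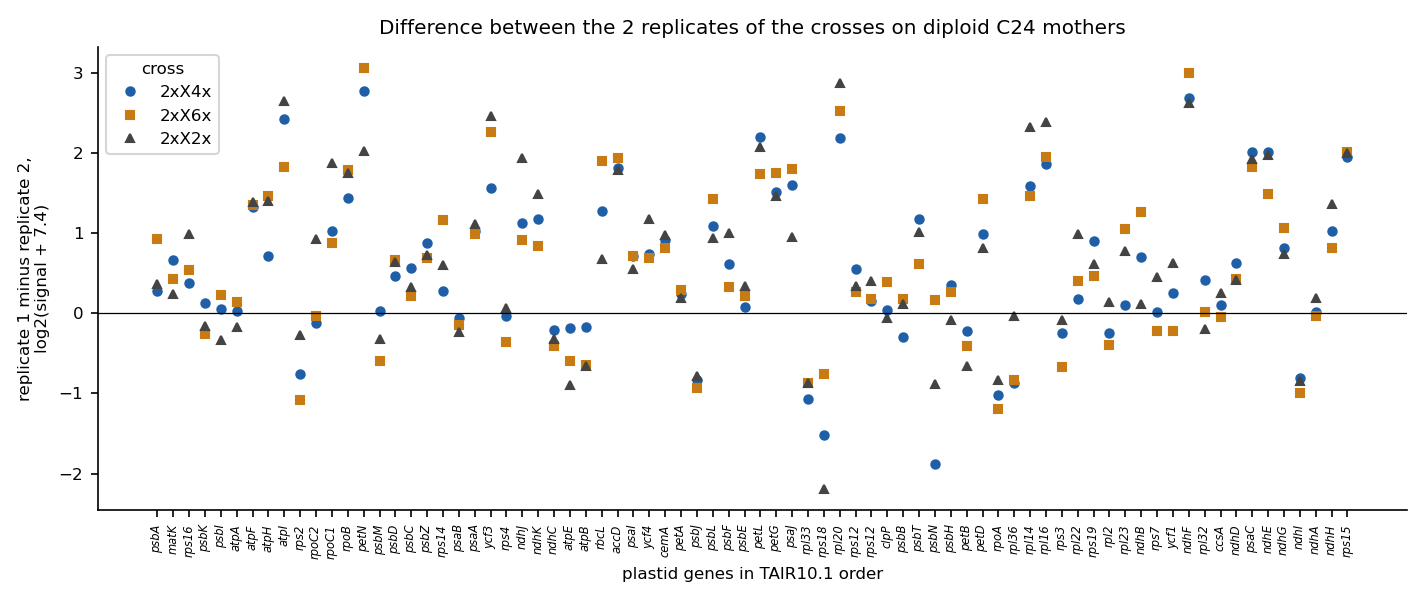
Replicate 1 minus replicate 2 on the log2(signal + 7.4) scale for each of the 76 measured plastid probe sets, in the order of their genes in TAIR10.1, for 2xX4x (circles), 2xX6x (squares) and 2xX2x (triangles). The symbols of the 3 crosses fall close together for most genes, and neighbours such as psaJ, rpl33, rps18 and rpl20 lie on both sides of 0.

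Genes next to each other in the gene order did not move as one. Strand was not used, and which of these neighbours are transcribed together was not tested. In the stretch psaJ, rpl33, rps18, rpl20, a photosystem I subunit followed by ribosomal proteins, the mean of replicate 1 over replicate 2 was 2.74-fold for psaJ, 0.522-fold for rpl33, 0.356-fold for rps18 and 5.78-fold for rpl20. The signal of rps18 was 184.1, 202.1 and 168.3 on replicate 1 of 2xX4x, 2xX6x and 2xX2x and 543.0, 345.7 and 794.0 on replicate 2. Close by, psbJ and psbL, small photosystem II subunits that lie next to each other, were at 0.556-fold and 2.22-fold. In the atp cluster of the ATP synthase, atpI, atpH and atpF were at 4.94-fold, 2.29-fold and 2.57-fold and atpA at 1.00-fold. Members lower on replicate 1 in all 3 crosses also included rpoA (0.495-fold), ndhI (0.543-fold), rps2 (0.614-fold), atpE (0.679-fold) and atpB (0.711-fold).

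Values of other genes on the same arrays were as follows. BAN gave 920.7, 792.6 and 744.8 on replicate 1 of 2xX4x, 2xX6x and 2xX2x and 1391, 1550 and 1608 on replicate 2. AGL62, an endosperm gene and the only one listed, was dim and ran the other way, with 16.4, 54.5 and 8.6 on replicate 1 and 7.5, 33.5 and 4.7 on replicate 2. For the other listed seed coat markers, TT10 and TT16, and the embryo markers LEC1, WOX2 and FUS3, no probe set was matched by name. The actin ratio of 3′ to 5′ signal was lower on replicate 1 in each cross, at 2.13 to 2.28, against 2.45 to 4.44 on replicate 2. The GAPDH ratio was higher on replicate 1 in each cross, with 0.984, 0.927 and 0.853, against 0.916, 0.858 and 0.838 on replicate 2. The 8 nuclear photosynthesis genes did not share one direction, with medians of -0.12, -0.17 and -0.05 on replicate 1 and -0.11, 0.13 and -0.08 on replicate 2 on the log2 scale. The part of tissue make-up or RNA quality in the plastid pattern was not tested.

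**Figure D3:**
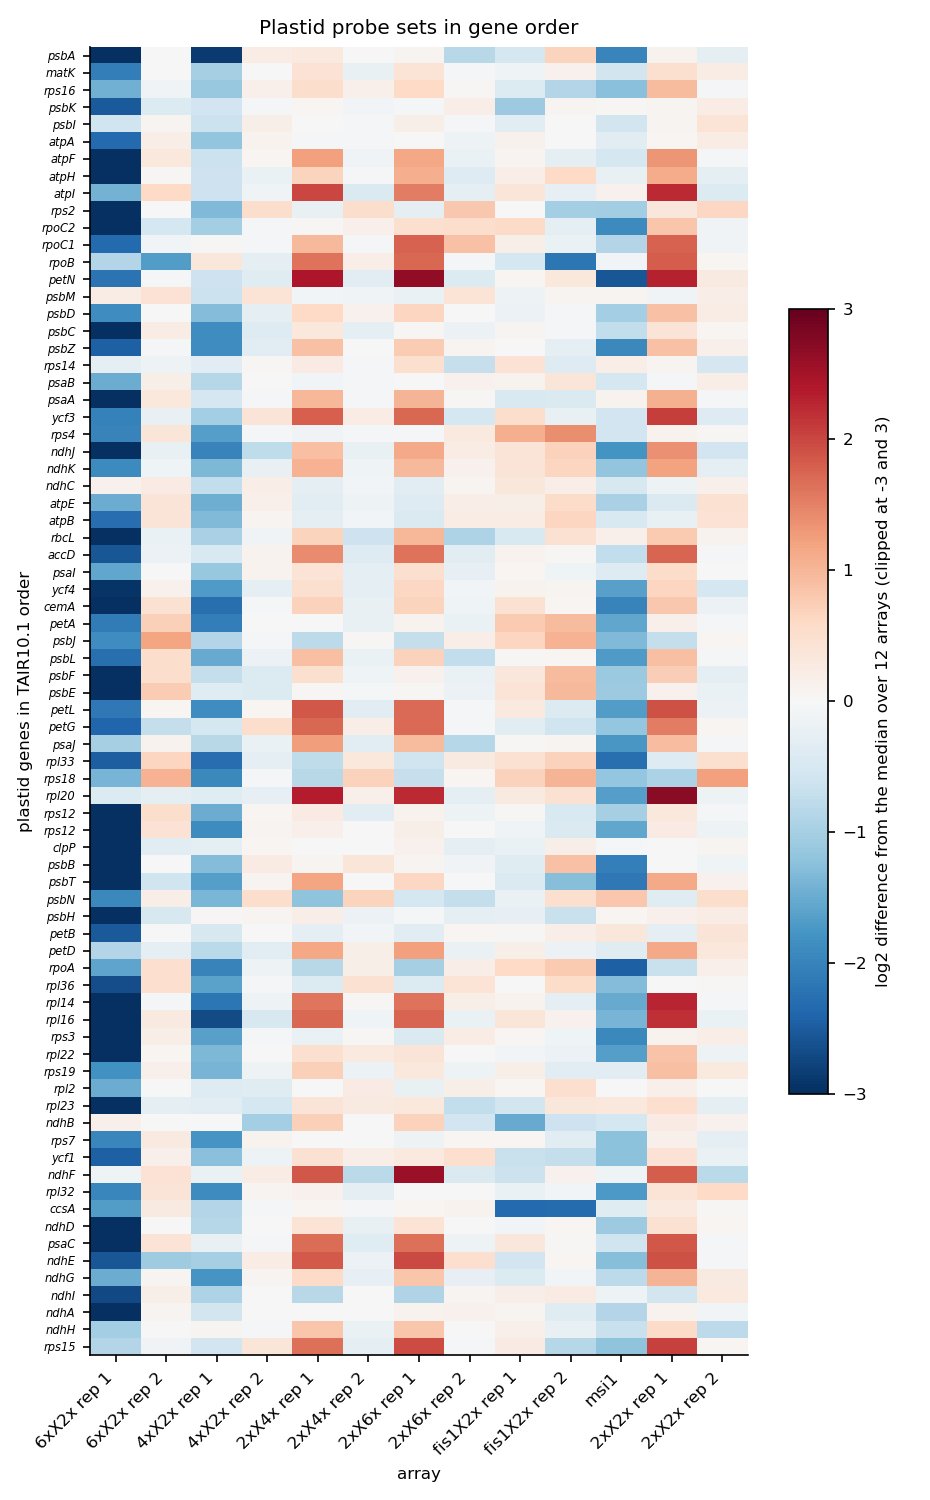
Difference of each measured plastid probe set from its median over the 12 arrays other than 6xX2x replicate 1, on the log2(signal + 7.4) scale, with genes in TAIR10.1 order and 1 column for each array. Columns of 6xX2x replicate 1, 4xX2x replicate 1 and msi1 are mostly blue (lower), the replicate 1 columns of 2xX4x, 2xX6x and 2xX2x hold many red genes (higher), and ccsA is blue in both fis1X2x columns.

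Whether organelle transcripts differed between crosses was tested for every probe set with limma over the 12 arrays of the replicated crosses, with 10 comparisons and Benjamini-Hochberg adjustment over all 15982 probe sets at 0.05. Members of the block passed in 2 of the 10, both with fis1X2x. The comparisons of each cross with 2xX2x share the same 2 arrays of 2xX2x.

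Plastid signals were lower on average in maternal excess than in 2xX2x, but no member passed the test. On the log2 scale the plastid median of 2xX2x was itself 0.49 above the usual signal on replicate 1, and 0.02 on replicate 2. In 6xX2x against 2xX2x, 74 of 76 plastid members were below 0, at a median log2 difference of -1.46, against -0.03 for all probe sets. None of the 108 block members was called with limma, beside 369 of 15982 probe sets (2.31%), the smallest adjusted p being 0.131, and 34 block members had an unadjusted p below 0.05 (16% of all probe sets). The standard error of the median plastid member was 0.80, against 0.33 for all. The groups did not overlap for 27 plastid members that were lower (23.1% of all probe sets) and 1 that was higher (19.6%). An example of the lower ones is ndhE of the NDH complex, with 36.9 and 117.7 in 6xX2x and 980.0 and 243.3 in 2xX2x (log2 difference -2.74 ± 0.83 (SE), adjusted p = 0.131, limma).

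In 4xX2x against 2xX2x, 74 of 76 plastid members were again below 0, at a median of -0.88. None of the 108 was called with limma, beside 348 probe sets (2.18%), with 9 members at an unadjusted p below 0.05 (12.1% of all probe sets), and 29 plastid members did not overlap and were lower (21.8% of all). Paternal excess lay close to 2xX2x. The median plastid member was at -0.12 in 2xX4x and at -0.14 in 2xX6x against 2xX2x, with 0 of 108 members called with limma, 0 with an unadjusted p below 0.05 in either, and plastid differences of -0.69 to 0.57. On the whole chip 13 (0.0813%) and 152 (0.951%) probe sets were called in these comparisons, and 2.82% and 5.12% had an unadjusted p below 0.05. The standard error of the median plastid member was again 0.80. It includes a replicate difference that 2xX2x, 2xX4x and 2xX6x shared in plastid members, so the counts of 0 cannot exclude small differences.

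Set directly against each other, paternal excess was above maternal excess in 74 of 76 plastid members, at a median of 1.1, and 6 did not overlap (6.23% of all probe sets). None was called with limma, beside 891 probe sets (5.58%), with a smallest adjusted p of 0.0620 in the block and 31 of 108 members at an unadjusted p below 0.05 (20.3% of all). In 2xX4x against 4xX2x the plastid median was 0.77, and again none of the 108 was called with limma, beside 511 (3.2%), with 6 members at an unadjusted p below 0.05 (12.7%). For 6xX2x against 4xX2x the median was -0.42, with none called beside 474 (2.97%) and 6 members at an unadjusted p below 0.05 (18.6%). For 6xX2x against the mean of the 4 crosses on C24 mothers it was -1.16, with none called beside 949 (5.94%) and 39 at an unadjusted p below 0.05 (23.5%). When 6xX2x replicate 2 was left out, so that replicate 1 alone stood for the cross, 39 members were called in 6xX2x against 2xX2x, 44 in paternal against maternal excess, 22 in 6xX2x against 4xX2x and 46 in 6xX2x against the C24 mothers, and without 6xX2x replicate 1 none was called in any of these 4.

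The lower plastid signals of maternal excess were seen in the replicate 1 arrays, where both sides of the comparison departed from the usual signal. The plastid median was -2.33 on 6xX2x replicate 1 and -1.01 on 4xX2x replicate 1. It was 0.39 to 0.49 on replicate 1 of 2xX4x, 2xX6x and 2xX2x. With the replicate 1 arrays alone, the plastid median was -3.06 in 6xX2x against 2xX2x, -1.75 in 4xX2x against 2xX2x and 2.22 in paternal against maternal excess, with all 76 members above 0 in the last. With the replicate 2 arrays alone, the same medians were 0.02, -0.09 and -0.12, with 40, 32 and 27 of 76 members above 0. Over the 10 comparisons the plastid median lay between -0.12 and 0.17 on the replicate 2 arrays and between -3.06 and 2.22 on the replicate 1 arrays. The mitochondrial median in 6xX2x against 2xX2x was -1.43 on replicate 1 and -0.01 on replicate 2 (n = 9), and that of the 8 nuclear photosynthesis genes -0.14 and 0.36. A difference between arrays of 1 replicate has no replicate check.

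**Figure D4:**
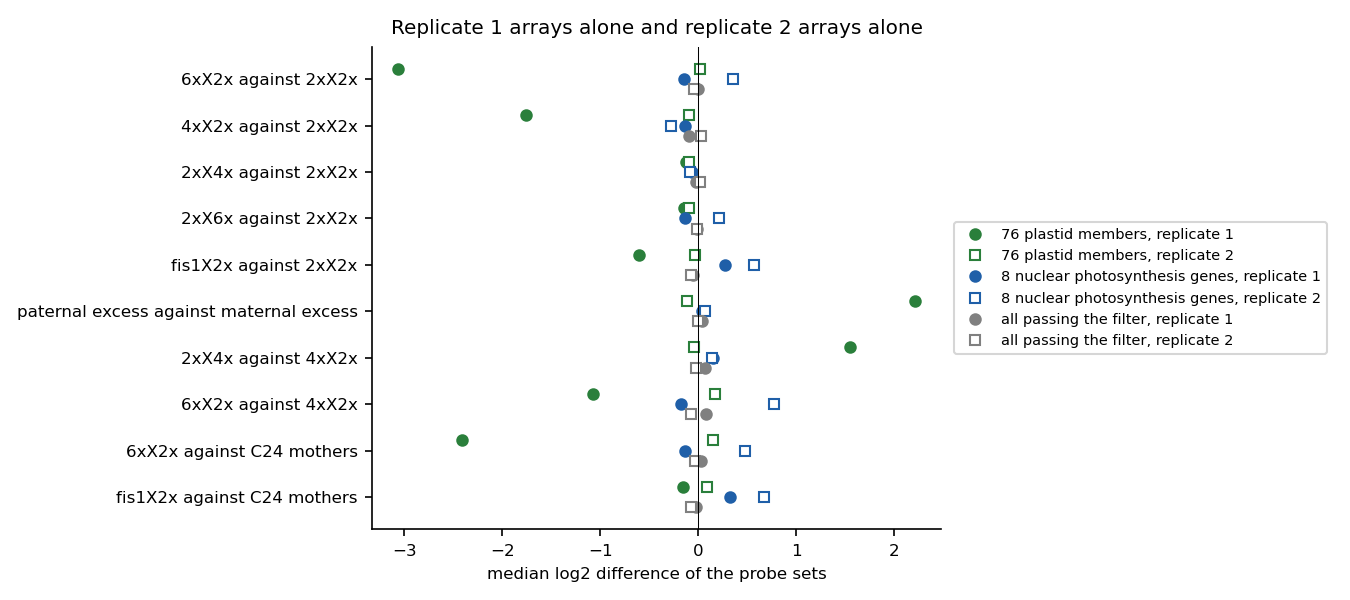
Median log2 difference in the 10 comparisons from the replicate 1 arrays alone (filled circles) and from the replicate 2 arrays alone (open squares), for the 76 plastid members (green), 8 nuclear photosynthesis genes (blue) and all 15982 probe sets (grey). Plastid medians run from -3.06 to 2.22 on replicate 1 and from -0.12 to 0.17 on replicate 2.

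The organelle genes that fell in fis1X2x were ccsA and nad4L. The plastid ccsA encodes a protein that attaches haem to c-type cytochromes, and its signal was 444.7 and 453.5 in fis1X2x and 2777 and 2331 in 2xX2x. It was 704.7 and 2711 in 6xX2x, 1230 and 2194 in 4xX2x, 2343 and 2185 in 2xX4x, 2357 and 2440 in 2xX6x and 1758 in msi1, so that both fis1X2x arrays were below all the others, including 6xX2x replicate 1. The log2 difference was -2.48 ± 0.50 (SE, limma, adjusted p = 0.0280) against 2xX2x and -2.26 ± 0.40 (adjusted p = 0.0105) against the mean of the 4 crosses on C24 mothers, a 4.80-fold lower signal. Its neighbours in the gene order were not changed in the same way: against the C24 mothers rpl32 was at -0.01 and ndhD at -0.04.

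The second was nad4L, a subunit of complex I of the mitochondrial respiratory chain, with 12.2 and 8.5 in fis1X2x and 74.0 and 43.7 in 2xX2x. It was 16.2 and 30.1 in 6xX2x, 54.3 and 48.4 in 4xX2x, 67.1 and 36.5 in 2xX4x, 66.0 and 42.2 in 2xX6x and 18.3 in msi1. The fis1X2x signals lay below the 40th percentile of any array (22.2 to 29.8), so the size of the fall is that of a dim probe set. The log2 difference was -1.87 ± 0.38 (limma, adjusted p = 0.0295) against 2xX2x and -1.77 ± 0.30 (adjusted p = 0.00925) against the C24 mothers. Of the 9 measured mitochondrial members 8 were below 0 against the C24 mothers, at a median of -0.52, and of 6 mitochondrial probe sets measured outside the block all 6 were below 0, at -0.32, with none called. For the 9 members the median was -0.48 with the replicate 1 arrays alone and -0.17 with the replicate 2 arrays alone. For nad4, another complex I subunit, the signals were 224.1 and 195.8 in fis1X2x and 700.7 and 178.6 in 2xX2x.

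These 2 were the only block members called in fis1X2x, of 108, beside 348 of 15982 probe sets (2.18%) called against 2xX2x and 436 (2.73%) against the C24 mothers. Plastid members as a whole lay at medians of -0.33 against 2xX2x and -0.04 against the C24 mothers, with 34 above 0 and 42 below 0 in the second. Both calls against 2xX2x were lost when either 2xX2x array or either fis1X2x array was left out, and that of ccsA also without either 2xX4x array. Against the C24 mothers both were lost without fis1X2x replicate 1 (limma, adjusted p = 0.0906 for ccsA and 0.0542 for nad4L) and without fis1X2x replicate 2 (0.101 and 0.112). Probe sequences were not used here, so a lower transcript level and a poorer match of the probes to the Ler organelle genomes cannot be told apart.

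Some plastid genes with high signals in fis1X2x did not pass the test, and they are described as values chosen after they were seen. Both fis1X2x arrays were above the 10 other arrays, leaving out 6xX2x replicate 1, for rpoA, rps4 and petA, 3 of 76 plastid members (3.95%, against 2.5% of all probe sets), and below them for ccsA alone (1.32%, against 3.65%). The signal of rps4, a ribosomal protein, was 4717 and 5755 in fis1X2x and 2354 and 2248 in 2xX2x, with no more than 2830 on any other array (log2 difference 1.42 ± 0.52 (SE) against the C24 mothers, limma, adjusted p = 0.219). For petA it was 2826 and 3166 in fis1X2x, 2714 in 6xX2x replicate 2 and 1824 and 1599 in 2xX2x. Next to petA in the gene order lies psbJ, with 933.5 and 1226 in fis1X2x, 1346 in 6xX2x replicate 2 and 354.3 and 613.4 in 2xX2x. The subunits of cytochrome b559 further along, psbF and psbE, gave 1183 and 1818 and 656.1 and 979.0 in fis1X2x, 1358 and 837.0 in 6xX2x replicate 2, and 1562 and 773.7 and 539.2 and 424.7 in 2xX2x. Against the replicate 2 arrays of the C24 mothers, petA, psbJ, psbF and psbE were 0.98, 0.78, 0.90 and 0.90 higher in fis1X2x and 0.84, 1.11, 0.79 and 0.96 higher in 6xX2x replicate 2, on the log2 scale. Between psbJ and psbF lies psbL, which was 0.33 higher in fis1X2x and 0.81 higher in 6xX2x replicate 2. Against all arrays of the C24 mothers psbL was at 0.06 in fis1X2x. With limma against the C24 mothers the adjusted p of petA was 0.428 and that of psbJ 0.398 in fis1X2x.

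**Figure D5:**
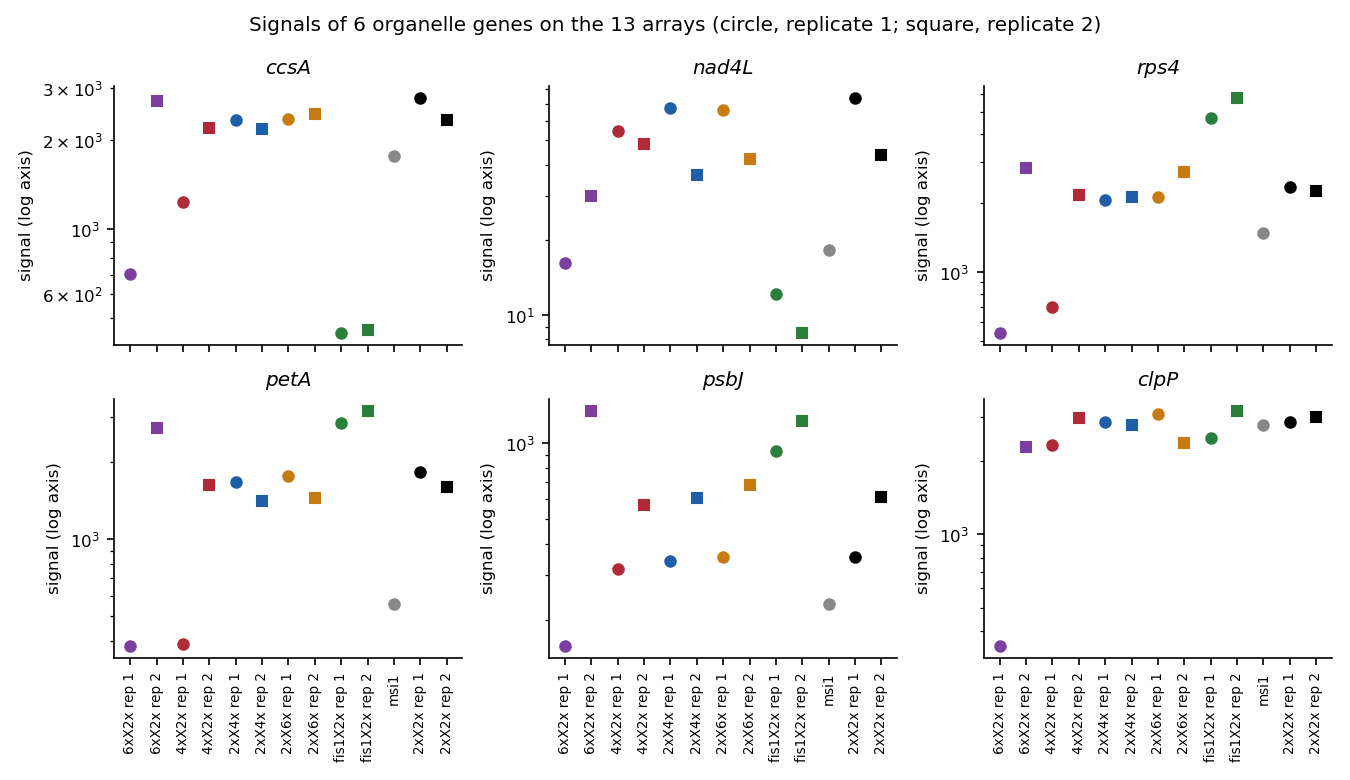
Signals of ccsA, nad4L, rps4, petA, psbJ and clpP on the 13 arrays, each on its own logarithmic axis, with circles for replicate 1 and msi1 and squares for replicate 2. ccsA is lowest on both fis1X2x arrays (444.7 and 453.5), rps4 is highest there (4717 and 5755), and clpP differs little between arrays except for 6xX2x replicate 1.

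The msi1 array was compared by size only, since it had no replicate. Of the 108 measured members 40 were at least 1 on the log2 scale below both 2xX2x arrays (6.04% of all probe sets) and 0 above both (3.52%). The first count was 45 without 2xX2x replicate 1 and 69 without 2xX2x replicate 2. The 40 included 32 of 76 plastid members, 1 of 9 mitochondrial, 2 of 3 AT2G07 and 0 of 4 AT2G26 probe sets. For petN the signal was 3.3 in msi1 and 306.0 and 69.3 in 2xX2x, and since 3.3 lies below the offset no fold is given. The next largest differences from the mean of 2xX2x were 9.01-fold for 244944_s_at, 7.63-fold for rpl20, with 25.9 in msi1 and 680.5 and 86.5 in 2xX2x, 6.87-fold for psbT, a small photosystem II subunit, with 76.2 in msi1 and 810.1 and 396.0 in 2xX2x, and 6.25-fold for rpl14, with 35.1 in msi1 and 587.9 and 111.2 in 2xX2x. Some plastid genes kept their signal there, such as clpP with 2796, petB with 6181 in msi1 and 4100 and 6447 in 2xX2x, and psbH, a small photosystem II subunit, with 1834 in msi1 and 1947 and 2067 in 2xX2x. The 8 nuclear photosynthesis genes all lay above their usual signal on this array, at a median of 0.49 on the log2 scale, and its actin and GAPDH ratios of 3′ to 5′ signal were 1.75 and 0.839. On the log2 scale the plastid median was -0.98 from the usual signal on msi1, and -1.01 and -0.03 on replicates 1 and 2 of 4xX2x. With 1 array, the harvest time, the lack of fertilisation, the mutation and variation between arrays of one kind cannot be told apart.

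Of the remaining members, 2 without a gene, 244979_at and 244981_at, also differed between the replicates of these crosses. The plastid genes numbered beside them differed in direction, rpl36 between them being at 0.670-fold on replicate 1 over replicate 2 and rpl14 after 244981_at at 3.47-fold. 244979_at gave 118.9, 128.1 and 127.7 on replicate 1 of 2xX4x, 2xX6x and 2xX2x, 456.7, 552.7 and 249.5 on replicate 2, and 35.8 on 6xX2x replicate 1. 244981_at ran the other way between the replicates, with 540.2, 441.2 and 652.2 on replicate 1 and 211.4, 163.7 and 145.2 on replicate 2, and gave 13.8 on 6xX2x replicate 1. The 45 probe sets without a gene were otherwise dim, 30 of them failing the filter. Among the AT2G07 loci, AT2G07751 gave 233.1, 216.3 and 224.4 on replicate 1 of the same 3 crosses and 59.5, 53.4 and 82.8 on replicate 2. Of the 4 measured nuclear genes of the AT2G26 series, AT2G26500 and AT2G26600 differed by 1.92-fold and 1.66-fold at most over the 12 arrays, and the dim AT2G26360 and AR781 by 3.23-fold and 4.17-fold. AR781 gave 149.8 and 65.9 in 6xX2x and 30.9 and 10.2 in 4xX2x (log2 difference 2.05 ± 0.51 (SE), limma, adjusted p = 0.0592), so it was highest on the array on which plastid signals were lowest.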

How the data were processed

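Whole siliques were profiled on 13 ATH1 arrays. The deposited values are MAS5 signal intensities made by the authors, with a trimmed mean of 100.01 on every array. The labelling primer is not given in the sources used here, and signals carry no depth, so the number of arrays limits the precision. Genes came from the platform annotation and gene order from the TAIR10.1 gene table. 8 plastid probe sets cover both copies of a gene in the inverted repeat. The 12 mitochondrial gene IDs were not in that table and were kept under the platform's names. All per-sample columns were used.

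Log2(signal + 7.4), the offset being the 20th percentile of the signals, was fitted with limma 3.58.1 in R 4.3.3 to the 12 arrays of the 6 crosses without a block, giving 6 residual and 4.9 prior degrees of freedom. Probe sets above the 40th percentile on at least 2 arrays were tested, with Benjamini-Hochberg adjustment over all 15982. P-values measure the spread between biological replicates, which were pools of plants. Named were the largest changes past the threshold, the 10 highest and 5 most variable members, the 5 largest differences in msi1 and up to 4 members of each functional group. Further genes were named after their values were seen. Members, lists and the rule for names were chosen with earlier results of these data known. The fit was tested on simulated data. Other offsets, filters, normalizations, array weights, a replicate block, left-out arrays and a call by size alone were tried.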

Additional observations from a re-analysis of the deposited data

Results flagged for a closer look

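Screened were the median plastid and mitochondrial deviations and the signals of ccsA, nad4L, rps4, petA and psbJ. Each was taken in paternal excess, in maternal excess and in the crosses on C24 mothers, in groups of 4 to 8 arrays. Of these genes, rps4, petA and psbJ were chosen after their values were seen. Among the values, 5 had 1 array whose gap to its nearest neighbour took up an unusually large share of the group's range. Chance gives such a share in about 1 in 20 groups. On 4xX2x replicate 1, within the 8 arrays of crosses on C24 mothers, this share was 0.637 for the median plastid deviation, 0.705 for ccsA, 0.794 for rps4 and 0.83 for petA, each with the low value on that array. The 4 values share 1 array and are not independent. Within the 4 paternal excess arrays the share was 0.893 for rps4, where 2xX6x replicate 2 gave 2715 and the 3 others 2055 to 2117.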

How the results depend on the processing

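The counts of block members called with limma were recomputed under each alternative. A call by size alone (mean log2 ratio of at least 0.6, with no test or offset) gave 80 in 6xX2x, 73 in 4xX2x, 5 in 2xX4x, 7 in 2xX6x and 50 in fis1X2x against 2xX2x, 76 in paternal against maternal excess, 63 in 2xX4x against 4xX2x, 50 in 6xX2x against 4xX2x, and 77 in 6xX2x and 31 in fis1X2x against the C24 mothers. For fis1X2x against 2xX2x, where 2 were called, no filter, the 60th percentile filter, array weights and the compared arrays alone gave 1 each. An alternative chosen after seeing the data, without 6xX2x replicate 1 and replicate 1 of 2xX2x, 2xX4x and 2xX6x, gave 0 there and 1 against the C24 mothers, where the 60th percentile filter also gave 1. For 6xX2x against the C24 mothers, a doubled offset gave 1 (AR781, higher) and quantile normalization 2 (clpP and psbK, lower). The cause was not tested.

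The replicate numbers were not taken as pairs, since the replicate differences of the crosses correlated at -0.24 to 0.41 over all probe sets. Over the plastid members they correlated at 0.86 to 0.90 among 2xX2x, 2xX4x and 2xX6x. For these members the fit without a block left a shared replicate difference in the residual. With the replicate block, 1 member was called in 6xX2x against 2xX2x, 1 in paternal against maternal excess and 2 in 6xX2x against the C24 mothers, against none without it, and 3 in each fis1X2x comparison.

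Leaving out 1 array at a time gave 0 to 39 calls in 6xX2x, 0 to 1 in 4xX2x, 0 to 0 in 2xX4x and in 2xX6x and 0 to 2 in fis1X2x against 2xX2x, 0 to 44 in paternal against maternal excess, 0 to 1 in 2xX4x against 4xX2x, 0 to 22 in 6xX2x against 4xX2x, and 0 to 46 in 6xX2x and 0 to 2 in fis1X2x against the C24 mothers. The highest counts with 6xX2x were those without 6xX2x replicate 2, and the single calls with 4xX2x those without 4xX2x replicate 2, a lone array then being assumed to vary like the other groups. Over these settings the adjusted p (limma) in fis1X2x against 2xX2x was 0.00185 to 0.125 for ccsA and 0.0313 to 0.173 for nad4L. For msi1 the count of 40 became 45 without 2xX2x replicate 1 and 69 without 2xX2x replicate 2. Without fis1X2x replicate 1, ccmB was the 1 member called in fis1X2x against the C24 mothers. The log2 differences of ccsA, nad4L, rps4, petA and psbJ in fis1X2x kept their sign in each alternative run for them.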
